A study of Homo sapiens with 6 samples.

Results

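The genes examined here are 10 growth factor receptor tyrosine kinases, chosen by gene name: the epidermal growth factor (EGF) receptor family members EGFR, ERBB2 and ERBB3, the hepatocyte growth factor receptor MET, the stem cell factor receptor KIT, the platelet-derived growth factor (PDGF) receptors PDGFRA and PDGFRB, and the fibroblast growth factor (FGF) receptors FGFR1, FGFR2 and FGFR3. All 10 were found among the 58870 genes of the count table. Their transcripts were measured by RNA sequencing in cells of the human melanoma line WM164, with 3 libraries of cells overexpressing green fluorescent protein (GFP) and 3 of cells overexpressing T-MGM, in which the melanocyte transcription factor MITF and its partner MAFG are joined through a flexible linker. According to the study's methods, lentiviral vectors carried the tethered dimer, built on the melanoma-specific MITF isoform, or GFP under an EF1α promoter, and transduced cells were selected with blasticidin. The labels give no separate cultures, dates or batches for the replicates, so p-values measure only the spread between these libraries, which may be technical.

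Receptor tyrosine kinases sit in the cell membrane, bind a growth factor outside the cell and pass the signal inward by phosphorylating tyrosines on each other, to which adaptor proteins bind and start the RAS-MAPK and PI3K pathways. ERBB3 differs from the others in that its own kinase is nearly inactive, so it signals mainly in pairs with ERBB2 or another relative. In melanocytes KIT and ERBB3 belong to the lineage's own signalling, whereas EGFR, PDGFRB and MET have been tied to dedifferentiated and drug-tolerant melanoma cells.

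Library totals were 35057239 to 38738065 counts for GFP and 44577774 to 59250663 for T-MGM, and levels are therefore given as normalized counts, which are raw counts divided by the size factor of DESeq2. In the construct's own genes, the median-scaled counts did not set the labels apart by much: MAFG had 2458 ± 70.3 normalized counts in GFP against 2358 ± 34.9 in T-MGM libraries and MITF had 19161 ± 46.9 and 20270 ± 165 (SD, n = 3 each), so that neither gene checks the labels and every direction below rests on the libraries as labelled. The 6 melanocyte markers (SOX10, PMEL, MLANA, TYR, DCT and S100B) summed to 1006 to 1029 TPM (transcript abundance scaled for length and depth) in GFP and to 839 to 874 in T-MGM libraries. DCT changed most, with 11460 ± 126 normalized counts in GFP against 2051 ± 88.8 in T-MGM (SD, n = 3 each). The log2 changes in the counts were -2.49 for DCT, -0.68 for MLANA, -0.35 for TYR and -0.21 for S100B. SOX10 and PMEL went the other way in the counts, by 0.11 and 0.05. In TPM both had lower means in T-MGM, SOX10 with 416 in GFP against 403 and PMEL with 252 against 237. Markers of mast cells, keratinocytes and endothelium summed to at most 0.34 TPM in any library, and the 3 leukocyte markers to 10.03 to 11.5 TPM in GFP and 11.21 to 15.25 in T-MGM libraries. Of the latter, PTPRC and CD3E had at most 1.95 normalized counts, while CD68, a lysosomal protein, had 755 ± 34.7 in GFP against 1026 ± 121 in T-MGM (SD, n = 3 each), a log2 change of 0.45, and its part in the receptor values was not tested.

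ERBB3 and FGFR1, the most abundant receptor transcripts, exchanged ranks between the groups in the TPM values, and the rare receptors of the PDGF and FGF families had higher counts in the libraries labelled T-MGM, although FGFR3 was lower in TPM. Of the 10 receptors, 9 received an adjusted p from DESeq2, and 7 of these were at or under 0.05, 6 higher (FGFR1, FGFR2, FGFR3, MET, PDGFRA and PDGFRB) and 1 lower (ERBB3). Over all 19135 genes tested, 38.4% passed that threshold, 19.2% in each direction, and among genes averaging at least 50 normalized counts it was passed by 6826 of 12652. A change of more than 2-fold was called for 4 receptors, FGFR2, PDGFRA, FGFR3 and PDGFRB, all higher in the counts, where 4.63% of all genes tested were called and 3.26% were called higher. The median log2 fold change (T-MGM over GFP throughout) of the 9 receptors was 0.52, beside -0.003 for all genes tested. The calls of PDGFRB and FGFR3 rest on few counts and were lost in part of the alternative fits. In bulk RNA a larger number of expressing cells and more RNA per cell cannot be told apart.

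Promoter sequences are shown for FGFR2 and PDGFRA, which rose more than 2-fold, and for MET. Of the 8 members with a RefSeq promoter entry, only MET holds a core E-box, the element that MITF and related factors bind. Those of PDGFRB and FGFR3, also called over 2-fold but not in every alternative fit, are not shown. Whether any promoter bears on the comparison was not tested. The sequences are the first RefSeq entry of each gene on GRCh38.p14, read 5′ to 3′ on the gene's strand from 250 bases before to 50 after the annotated start, with the letters of any searched motif in capitals.
MET, plus strand, chr7:116671946-116672245: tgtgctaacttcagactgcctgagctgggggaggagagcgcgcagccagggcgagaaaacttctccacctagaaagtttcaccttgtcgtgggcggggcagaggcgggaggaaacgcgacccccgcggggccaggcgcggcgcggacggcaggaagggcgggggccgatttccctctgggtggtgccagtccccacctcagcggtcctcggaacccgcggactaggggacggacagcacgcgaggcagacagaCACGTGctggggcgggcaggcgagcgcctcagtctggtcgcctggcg
PDGFRA, plus strand, chr4:54229043-54229342: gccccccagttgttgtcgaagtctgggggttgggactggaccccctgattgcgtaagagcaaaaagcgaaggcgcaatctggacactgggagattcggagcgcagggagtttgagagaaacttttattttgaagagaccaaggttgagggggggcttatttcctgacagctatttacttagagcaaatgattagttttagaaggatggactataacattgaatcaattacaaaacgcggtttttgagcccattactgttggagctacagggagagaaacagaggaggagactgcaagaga
FGFR2, minus strand, chr10:121598395-121598694: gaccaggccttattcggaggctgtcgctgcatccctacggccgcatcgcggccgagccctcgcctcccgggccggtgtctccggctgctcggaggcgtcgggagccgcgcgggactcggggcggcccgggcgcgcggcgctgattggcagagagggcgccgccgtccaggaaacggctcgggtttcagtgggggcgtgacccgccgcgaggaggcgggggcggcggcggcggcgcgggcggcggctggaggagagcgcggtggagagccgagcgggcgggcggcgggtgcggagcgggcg

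RefSeq promoter entries were matched for 8 members (all but ERBB3 and FGFR1), with 14 entries in all because several genes have more than 1 annotated start. Both strands were searched for CACGTG (the E-box core) and for TCACGTG and TCATGTG (the forms extended by a T, of which the first contains the core). The search also covered TGCTGA (a part of the MAF recognition element) and TGACTCA (the AP-1 element). By the study's account the AP-1 motif lies within the MAF recognition element. CACGTG occurred in 1 of the 14 entries, that of MET, where it starts 3 bases after the annotated start, while 7.26% of 35116 promoters of the same length hold it. TGCTGA and TGACTCA each occurred in 1 entry, a second start of EGFR, and are held by 17.3% and 4.95% of all promoters. TCACGTG and TCATGTG occurred in none of the 14 entries, with shares of 3.71% and 2.92% over all promoters. The GC content was 79.3% in the FGFR2 window, 47.0% in that of PDGFRA and 69.3% in that of MET, beside a median of 58.7%.

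**Figure D1:**
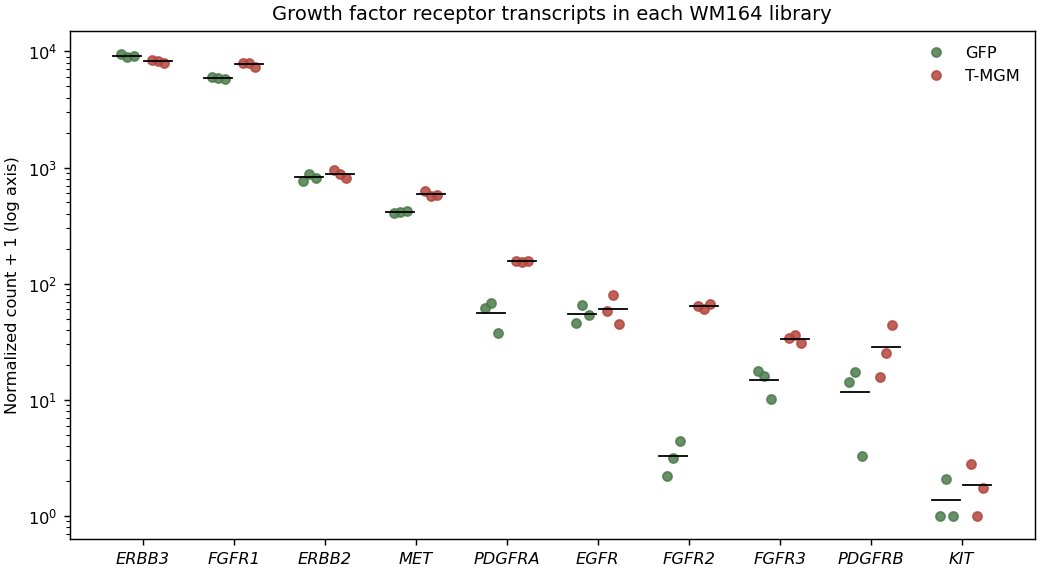
Normalized count plus 1 on a log axis for each receptor in each WM164 library, with GFP libraries in green, libraries labelled T-MGM in red and a black line at each group mean (3 libraries each). ERBB3 and FGFR1 lie far above the others, FGFR2 moves from 1.20 to 3.43 up to 59.5 to 66.4 normalized counts, and KIT stays at or near 0 in both groups.

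The first comparison asks how the level of each receptor stood within a group, which needs a unit scaled for transcript length. In the deposited TPM values ERBB3 and FGFR1 made up nearly all receptor transcripts. ERBB3 had 64.1, 58.9 and 56.1 TPM in the GFP libraries against 55.6, 47.6 and 45.7 in those labelled T-MGM. FGFR1 had 48.5, 48.2 and 52.1 TPM in GFP against 67.2, 62.9 and 61.0 in T-MGM libraries. In GFP, each library had more ERBB3 than any library had FGFR1, and in T-MGM the order was turned, with no overlap between the receptors in either group.

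ERBB2, the partner of ERBB3 that binds no ligand of its own, followed in both groups with 4.60 ± 0.538 TPM in GFP against 4.47 ± 0.518 in T-MGM (SD, n = 3 each). MET stood next with 1.46 ± 0.12 and 2.23 ± 0.241 TPM. Below it in GFP, PDGFRB, PDGFRA, FGFR3 and EGFR had mean levels of 0.157 to 0.257 TPM, and FGFR2 followed at 0.0533 TPM. PDGFRB ranged from 0.06 to 0.55 TPM and so overlapped each of these other receptors. FGFR3 also overlapped EGFR, and EGFR overlapped FGFR2. In T-MGM, PDGFRA had 0.707 ± 0.202 TPM, followed by PDGFRB, FGFR2, EGFR and FGFR3, each of which overlapped its neighbour in that order. KIT was listed at 0 in 5 of 6 libraries and at 0.01 TPM in the remaining library.

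The order of the leading pair depended on how length was handled. With CPM divided by the length of all annotated exons in kilobases, ERBB3 stood above FGFR1 in both groups, at 2.28 ± 0.0550 times its level in GFP and 1.56 ± 0.0273 times in T-MGM (SD, n = 3 each). With these fixed lengths the fall of the ratio does not depend on length, since the same lengths enter every library. In the deposited TPM values the mean ratio in T-MGM was 0.645 times that in GFP, beside 0.684 times in the counts. Whether the lengths behind the TPM values differed between libraries was not tested.

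Balance between ERBB3 and FGFR1 was then taken within each library, where the scaling between libraries cancels. The ratio of ERBB3 counts to FGFR1 counts was 1.58, 1.51 and 1.56 in the GFP libraries against 1.06, 1.04 and 1.08 in the libraries labelled T-MGM. The groups did not overlap, and the mean ratio in T-MGM was 0.684 times that in GFP, with an exact 2-sided permutation p of 0.1, the smallest that 3 against 3 libraries allow. Of the summed TPM of the 10 receptors, ERBB3 held 51.3% ± 2.54 in GFP against 40.7% ± 1.22 in T-MGM, and FGFR1 held 42.7% ± 2.31 and 52.3% ± 1.27 (SD, n = 3 each). The summed TPM itself was 116 ± 2.50 in GFP against 122 ± 9.11 in T-MGM, with overlapping ranges (exact permutation p of 0.7).

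**Figure D2:**
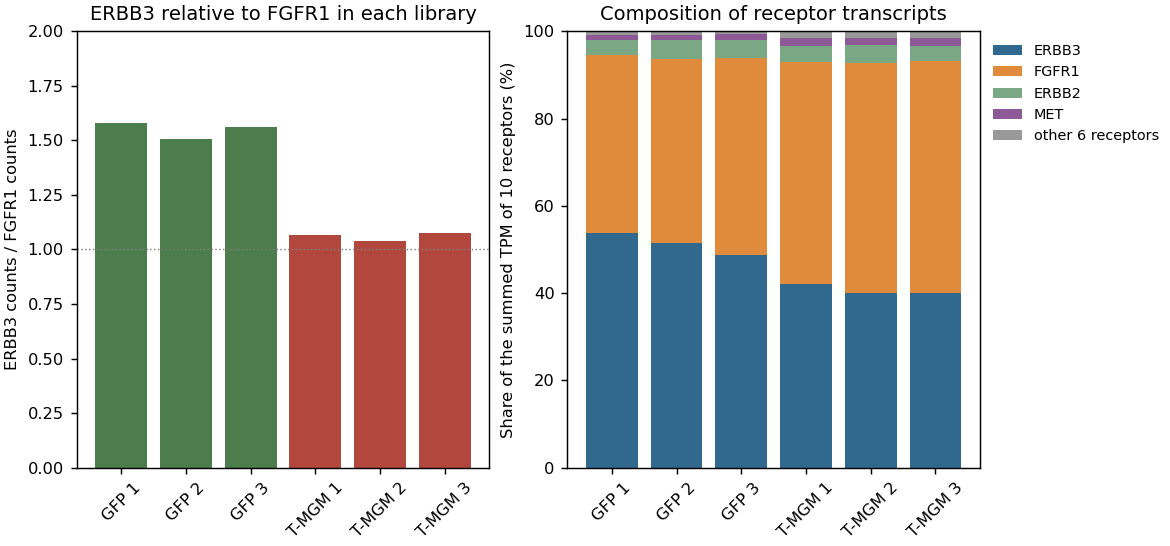
Left, ERBB3 counts divided by FGFR1 counts in each library, with a dotted line at equal counts; right, the share of the summed TPM of the 10 receptors held by ERBB3, FGFR1, ERBB2, MET and the other 6 together in each library. The count ratio is 1.51 to 1.58 in GFP against 1.04 to 1.08 in T-MGM libraries, and the ERBB3 share falls below the FGFR1 share in all 3 libraries labelled T-MGM.

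Between the groups, the EGF receptor family was compared first. ERBB3 (ENSG00000065361.15, chromosome 12, 56076799 to 56103505, GRCh38) had 9439, 8886 and 9094 normalized counts in GFP against 8441, 8243 and 7971 in T-MGM libraries. All 3 T-MGM libraries were below all 3 GFP libraries, but the fall was small, at -0.15 on the log2 scale (SE 0.03, adjusted p = 1.01e-08 by DESeq2), a fold of 0.899 with 95% limits of 0.869 to 0.931. The 120 other genes measured within 5 Mb of ERBB3 had a median log2 fold change of 0.09.

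ERBB2 (ENSG00000141736.13, chromosome 17, 39687914 to 39730426) had 769, 886 and 817 normalized counts in GFP against 960, 877 and 805 in T-MGM libraries, and the groups overlapped. Its log2 change was 0.09 (SE 0.08, adjusted p = 0.372 by DESeq2), and the 95% limits of the fold ran from 0.963 to 1.18. The genes PGAP3 and MIEN1 overlap exons of ERBB2 on the opposite strand, and since the labels and the study's methods name kits without and with strand information, reads there may be assigned to either.

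EGFR (ENSG00000146648.18, chromosome 7, 55019017 to 55211628), the founding member of the family, was rare, with 44.4, 63.9 and 52.5 normalized counts in GFP against 57.5, 79.0 and 43.5 in T-MGM libraries. The T-MGM values lay on both sides of the GFP values. The log2 change was 0.15 (SE 0.29, adjusted p = 0.749 by DESeq2). The 95% limits of the fold ran from 0.749 to 1.64, so neither a fall nor a rise within those limits is excluded. The antisense gene EGFR-AS1 had at most 3 counts in any library.

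MET and KIT, compared next, differed widely in level. MET (ENSG00000105976.15, chromosome 7, 116672196 to 116798377), whose ligand drives scattering and motility of epithelial and melanoma cells, had 408, 409 and 421 normalized counts in GFP against 632, 568 and 578 in T-MGM libraries. Every T-MGM library exceeded every GFP library, a log2 change of 0.52 (SE 0.09, adjusted p = 2.15e-08 by DESeq2) or a fold of 1.44 with 95% limits of 1.27 to 1.62. The 16 other genes measured within 5 Mb had a median log2 fold change of -0.06. KIT (ENSG00000157404.15, chromosome 4, 54657267 to 54740783) had raw counts of 0, 1 and 0 in GFP against 2, 0 and 1 in T-MGM libraries, all at or under a floor of 3 counts, and no fold is given. This floor corresponds to 0.0506 to 0.0856 CPM (counts scaled to the library total).

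The PDGF receptors were low and higher in the libraries labelled T-MGM. PDGFRA (ENSG00000134853.12, chromosome 4, 54229280 to 54298245), which binds the A, B and C chains of PDGF, had 61.2, 67.1 and 36.6 normalized counts in GFP against 157, 153 and 156 in T-MGM libraries. The T-MGM libraries differed by few counts and lay above every GFP library, of which replicate 3 was the lowest. The log2 change was 1.50 (SE 0.22, adjusted p = 4.57e-11 by DESeq2), a fold of 2.82 with 95% limits of 2.10 to 3.79, and it was 1.28 without GFP replicate 3. On log2 of TPM plus 1, which understates the change of low genes, it was 0.44 (limma adjusted p of 0.0195). A protein-coding gene that overlaps PDGFRA exons on the same strand (ENSG00000282278) had raw counts of 18, 0 and 3 in GFP and 0 in all 3 T-MGM libraries, beside 51, 62 and 32 raw counts of PDGFRA in GFP. KIT lies on the same chromosome arm, and the 21 genes measured within 5 Mb of PDGFRA had a median log2 fold change of -0.09.

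PDGFRB (ENSG00000113721.14, chromosome 5, 150113839 to 150155872), the receptor for the B and D chains, had 13.2, 16.2 and 2.28 normalized counts in GFP against 14.6, 24.4 and 42.8 in T-MGM libraries. The groups overlapped, with T-MGM replicate 1 between GFP replicates 1 and 2. Its log2 change of 1.37 (SE 0.58) passed narrowly, at an adjusted p = 0.0482 by DESeq2. Without GFP replicate 3 it was 0.90 (adjusted p = 0.242 by DESeq2), and without T-MGM replicate 3 it was 0.88 (adjusted p = 0.391 by DESeq2). The call was also lost without GFP replicate 1 (adjusted p = 0.0641 by DESeq2) and without T-MGM replicate 2 (0.0922), with total counts as size factors (0.0610), and without independent filtering, the step of DESeq2 that drops low genes before adjustment (0.0811). PDGFRB also marks fibroblasts and pericytes. Of 4 fibroblast markers, DCN, THY1 and COL1A2 had at most 10.3 normalized counts in any library, and LUM had 304 ± 16.8 normalized counts in GFP against 516 ± 29.4 in T-MGM (SD, n = 3 each). The summed TPM of the 4 markers was 3.51 to 4.52 in GFP against 4.05 to 5.95 in T-MGM, and their part in the PDGFRB value was not tested.

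The 3 FGF receptors rose together in the counts, from very different levels. FGFR1 (ENSG00000077782.20, chromosome 8, 38400215 to 38468834), the main FGF receptor of melanoma cells, had 5983, 5898 and 5818 normalized counts in GFP against 7926, 7932 and 7412 in T-MGM libraries. The groups were well apart, with a log2 change of 0.39 (SE 0.03, adjusted p = 1.51e-44 by DESeq2), a fold of 1.31 with 95% limits of 1.27 to 1.36. The 42 other genes measured within 5 Mb had a median log2 fold change of 0.07. LETM2, which overlaps FGFR1 exons on the opposite strand, had 81 to 184 raw counts, against 4989 to 10044 for FGFR1.

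FGFR2 (ENSG00000066468.22, chromosome 10, 121478332 to 121598458) was near the limit of detection in GFP, with raw counts of 1, 2 and 3, and had 69, 61 and 90 raw counts in the libraries labelled T-MGM. After scaling these were 1.20, 2.17 and 3.43 normalized counts in GFP against 62.9, 59.5 and 66.4 in T-MGM, so that the lowest T-MGM library stood far above the highest GFP library. The ratio of depth-scaled pooled counts was 27.8, with an exact 95% interval of 12.6 to 76.5 that covers counting error only. DESeq2 fitted a log2 change of 4.79 (SE 0.66, adjusted p = 4.88e-12). FGFR2 entered the test through its T-MGM counts, since DESeq2 filters on the mean over all libraries. In absolute terms it stayed rare, at 0.393 ± 0.0569 TPM in T-MGM beside 63.7 ± 3.17 TPM of FGFR1 (SD, n = 3 each). Its 43 neighbours within 5 Mb had a median log2 fold change of -0.12.

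FGFR3 (ENSG00000068078.18, chromosome 4, 1793293 to 1808872) had 16.8, 15.2 and 9.14 normalized counts in GFP against 32.8, 35.1 and 29.5 in T-MGM libraries. The normalized counts did not overlap, a log2 change of 1.25 (SE 0.44, adjusted p = 0.0141 by DESeq2). The deposited TPM values went the other way, at 0.11, 0.23 and 0.22 in GFP against 0.15, 0.15 and 0.13 in T-MGM libraries, and there the groups overlapped. The call was lost without GFP replicate 3 (adjusted p = 0.0892 by DESeq2), T-MGM replicate 1 (0.0597) or T-MGM replicate 2 (0.0674). GFP replicate 3 was the lowest GFP library for FGFR3, PDGFRA and PDGFRB alike. A direction for FGFR3 that holds in both deposited tables can therefore not be given.

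For 6 of the 10 receptors the 2 groups had no overlap in normalized counts (ERBB3, MET, PDGFRA, FGFR1, FGFR2 and FGFR3), and over all genes tested the share was 46.8%. The neighbours of the 9 receptors with an adjusted p had median log2 fold changes between -0.12 and 0.09. Medians over windows of this width cannot show a change limited to a few genes, which was not tested.

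**Figure D3:**
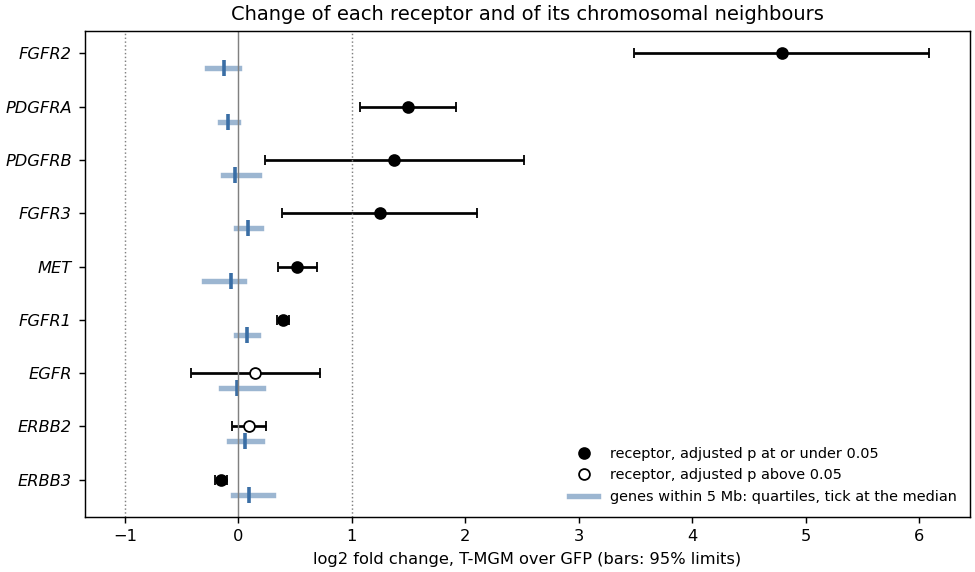
Log2 fold change of 9 receptors with 95% limits from DESeq2 (filled, adjusted p at or under 0.05; open, above), over the quartiles and the median of all genes measured within 5 Mb of each receptor in blue; dotted lines mark a 2-fold change, and KIT is left out because all its libraries are at or under 3 counts. FGFR2 stands apart at 4.79, the limits of PDGFRB and FGFR3 are wide, and FGFR1 at 0.39 and ERBB3 at -0.15 have narrow limits away from 0.

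The growth factors that bind these receptors were examined next, from a list of 35 ligand genes. Of these, 12 had at most 3 counts in every library and 19 received an adjusted p, of which 9 rose, 2 fell and 8 did not pass, where 38.4% of all genes tested passed. More than 2-fold calls were made for AREG, BTC, NRG3, PDGFC and PDGFD, which were higher, and FGF2, which was lower, beside 3.26% of all genes tested called higher and 1.36% called lower. The median log2 fold change over the 19 ligands was 0.38.

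Of the PDGF ligands, PDGFA, PDGFC and PDGFD rose. PDGFC, a ligand of PDGFRA, had 88.7, 68.2 and 41.1 normalized counts in GFP against 244, 266 and 291 in T-MGM libraries, a log2 change of 2.02 (SE 0.19, adjusted p = 3.17e-24 by DESeq2). PDGFD, a ligand of PDGFRB, had 143 ± 28.7 normalized counts in GFP against 331 ± 38.1 in T-MGM (n = 3 each, SD), which gave a log2 change of 1.21 (SE 0.15, adjusted p = 7.45e-15 by DESeq2). PDGFA rose by 0.39 on the log2 scale (SE 0.07, adjusted p = 8.57e-08 by DESeq2), without passing in the TPM values. PDGFB was rare, with 4.57 to 7.58 normalized counts in GFP and 0.738 to 1.82 in T-MGM libraries. Its groups did not overlap and the pooled ratio was 0.202, with an exact 95% counting interval of 0.0488 to 0.634, but it did not pass the test across libraries (adjusted p = 0.153 by DESeq2).

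Among the ligands of EGFR, TGFA was by far the most abundant, with 3809 ± 33.2 normalized counts in GFP against 4947 ± 109 in T-MGM (n = 3 each, SD), and showed a log2 change of 0.38 (SE 0.03, adjusted p = 1.34e-36 by DESeq2). EGF fell from 199 ± 2.68 to 142 ± 11.1 normalized counts, by 0.48 on the log2 scale (SE 0.15, adjusted p = 0.00402 by DESeq2). HBEGF had 823 ± 13.0 and 769 ± 21.1 normalized counts and did not pass (log2 fold change -0.10; adjusted p = 0.268 by DESeq2). AREG was all but silent in GFP, with raw counts of 0, 0 and 1, and had 41, 34 and 27 in the libraries labelled T-MGM (adjusted p = 5.87e-06 by DESeq2), a pooled ratio of 77.3 with an exact 95% counting interval of 13.6 to 3081. BTC had raw counts of 0, 0 and 2 in GFP against 13, 7 and 16 in T-MGM (adjusted p = 0.0136 by DESeq2), a pooled ratio of 13.6 with an interval of 3.51 to 117, and its call was lost when GFP replicate 2, T-MGM replicate 1 or T-MGM replicate 3 was left out. Like FGFR2, AREG and BTC entered the test through their T-MGM counts. EREG had at most 8.12 normalized counts and did not pass (adjusted p = 0.509 by DESeq2).

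Neuregulins, the ligands of ERBB3 and ERBB4, were led by NRG3, which rose together with NRG2. NRG3, which binds ERBB4, had 1070, 1110 and 965 normalized counts in GFP against 2199, 2390 and 2180 in T-MGM libraries, a log2 change of 1.10 (SE 0.05, adjusted p = 9.38e-88 by DESeq2). NRG2 rose by 0.60 on the log2 scale (SE 0.12, adjusted p = 4.83e-06 by DESeq2). NRG1, the main ligand of ERBB3, had 6.03 ± 3.98 and 3.65 ± 2.38 normalized counts (SD, n = 3 each) and did not pass (adjusted p = 0.652 by DESeq2), and NRG4 had no counts. ERBB4 itself had at most 2.17 normalized counts in 5 of 6 libraries and 14.0 in T-MGM replicate 3.

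Ligands of MET and KIT differed in abundance. HGF, the ligand of MET, had raw counts of 5, 0 and 2 in GFP against 0 in all 3 T-MGM libraries, with no adjusted p. KITLG, the ligand of KIT, had 948 ± 65.3 normalized counts in GFP against 852 ± 25.5 in T-MGM (SD, n = 3 each). The libraries did not overlap, but the difference missed the threshold (log2 fold change -0.16, SE 0.07; adjusted p = 0.0519 by DESeq2).

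On the FGF side, FGF2, a broadly acting FGF that melanoma cells are known to make for themselves, had 134, 159 and 142 normalized counts in GFP against 68.4, 55.6 and 60.5 in T-MGM libraries. It fell by 1.24 on the log2 scale (SE 0.20, adjusted p = 4.11e-09 by DESeq2) with no overlap. FGF1, which binds all FGF receptors and was named after its values were seen, rose by 0.64 (SE 0.11, adjusted p = 9.51e-08 by DESeq2). The other FGF genes of the list had at most 15.5 normalized counts in any library.

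Relatives of the receptors were then compared, from a list of 8. FGFRL1, an FGF receptor homologue without a kinase domain that binds FGFs, rose from 6647, 6814 and 6809 to 14827, 14938 and 15368 normalized counts, a log2 change of 1.16 (SE 0.02), and DESeq2 returned an adjusted p of 0 because the value was too small for it to hold. At 90.0 ± 0.809 TPM in T-MGM (44.9 ± 0.718 in GFP; SD, n = 3 each) it stood above FGFR1 in that group. FGFR4 had 287 ± 29.9 and 322 ± 36.0 normalized counts and did not pass (adjusted p = 0.327 by DESeq2), and ERBB4, MST1R and CSF1R had at most 14.0 normalized counts. FLT3 and KL had no counts and KLB had 1.

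Proteins that act just inside the membrane moved in small steps. Of 19 adaptors and proximal effectors, 18 received an adjusted p, of which 2 rose, 11 fell and 5 did not pass, and none changed more than 2-fold. Over all genes tested 19.2% fell, and among those averaging at least 50 normalized counts 3490 of 12652 fell and 6826 passed in either direction. The median log2 fold change was -0.18. PIK3R1, the regulatory subunit that holds PI3K in check and brings it to the receptors, fell by 0.61 on the log2 scale (SE 0.05, adjusted p = 1.08e-37 by DESeq2), and GAB2, a docking protein, fell by 0.36 (SE 0.02, adjusted p = 1.60e-70 by DESeq2). PIK3R2 rose by 0.42 (SE 0.12, adjusted p = 0.00136 by DESeq2) and SHC1 by 0.14 (SE 0.02, adjusted p = 1.14e-08 by DESeq2). These 4 genes were named after their values were seen. After correction for GC content and transcript length, an alternative chosen after seeing the data, 6 genes of this list passed in place of 13, 5 of them lower.

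Attenuators of receptor signalling moved in both directions. Of 15 with an adjusted p, 5 rose, 6 fell and 4 did not pass, beside 38.4% of all genes tested and 6826 of 12652 averaging at least 50 normalized counts that passed. None changed more than 2-fold, and the median log2 fold change was -0.02. The 5 that rose were SPRED3 at 0.62, UBASH3B at 0.59, ERRFI1 at 0.54, SH3KBP1 at 0.45 and SPRY4 at 0.32 on the log2 scale. ERRFI1, an inhibitor that binds the kinase domains of EGFR and its relatives, had 7442 ± 115 normalized counts in GFP against 10850 ± 228 in T-MGM (SD, n = 3 each; adjusted p = 4.73e-130 by DESeq2). Those that fell were SPRY1 at -0.48, LRIG2 at -0.40, LRIG1 at -0.29, SPRED1 at -0.23, CBL at -0.20 and CBLB at -0.11, of which CBL and CBLB mark activated receptors for destruction. These genes too were named after their values were seen. CBLB passed narrowly (adjusted p = 0.0407 by DESeq2). With any 1 library left out, 10 attenuators passed in place of 11, 5 of them lower. None of the 3 tested genes for ligand shedding and activation (ADAM10, ADAM17 and SPINT1) passed (adjusted p = 0.0580 by DESeq2, 0.756 and 0.919).

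**Figure D4:**
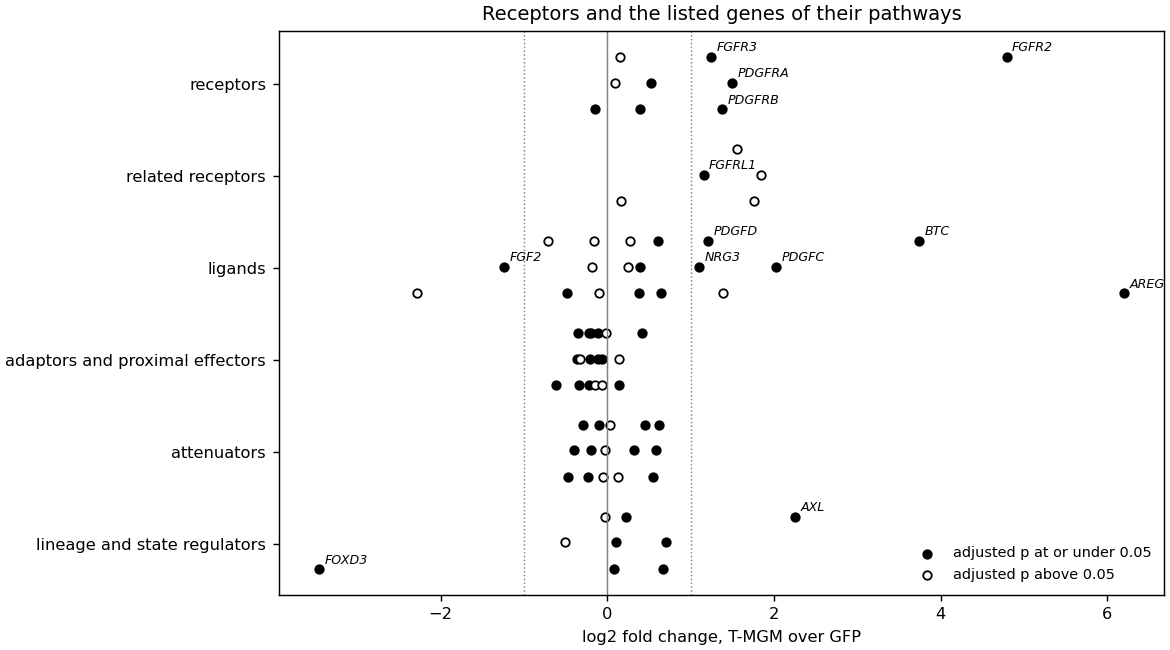
Log2 fold change of every gene with an adjusted p among the receptors, related receptors, ligands, adaptors and proximal effectors, attenuators, and lineage and state regulators (filled, DESeq2 adjusted p at or under 0.05; open, above), with dotted lines at a 2-fold change and names for genes called over 2-fold; heights within a row carry no meaning. Calls over 2-fold lie among receptors, related receptors, ligands and regulators, none among adaptors or attenuators, and the fitted values of AREG, BTC and FGFR2 rest on GFP counts of 0 to 3.

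Factors known to regulate these receptors or the melanoma state were listed last. FOXD3, a neural crest factor known to activate ERBB3 in melanoma cells, fell from 529, 506 and 458 to 35.6, 53.7 and 46.5 normalized counts, a log2 change of -3.46 (SE 0.16, adjusted p = 1.27e-102 by DESeq2), beside the fall of ERBB3 by 0.15. SOX10, the lineage factor whose loss is known to raise EGFR and PDGFRB, rose by 0.11 (SE 0.02, adjusted p = 4.24e-10 by DESeq2), with the sign turned in the TPM values. AP-1 subunits rose, JUN by 0.70 (SE 0.08, adjusted p = 2.74e-19 by DESeq2) and FOSL1 by 0.66 (SE 0.02, adjusted p = 1.17e-234 by DESeq2), while EGFR, PAX3 (-0.02; adjusted p of 0.776) and SOX9 (-0.51; adjusted p of 0.531) did not pass in DESeq2. TFAP2A rose by 0.23 (SE 0.02, adjusted p = 1.40e-18 by DESeq2) and MITF by 0.08 (SE 0.02, adjusted p = 4.80e-07 by DESeq2), the latter turned in the TPM values. The receptor AXL, another tyrosine kinase and the marker of dedifferentiated melanoma, had 236 ± 13.4 normalized counts in GFP against 1126 ± 80.4 in T-MGM (n = 3 each, SD), which gave a log2 change of 2.26 (SE 0.09, adjusted p = 2.19e-136 by DESeq2). In T-MGM it had 4.48 ± 0.287 TPM, close to ERBB2 and above MET.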

How the data were processed

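Per the study's methods, adapters were removed with cutadapt, STAR placed the reads on GRCh38 and featureCounts tallied those with a unique position. The deposited counts are raw whole numbers, with a column for each library. The deposited TPM values have the same sum in each library, and the submitters' processing notes name RSEM 1.3.0. Annotation release and strand setting are not given in the sources used here.

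DESeq2 1.42.0 in R 4.3.3 was fitted to all genes and 6 libraries with group as the only term (2-sided Wald test, no shrinkage, independent filtering, Benjamini-Hochberg over all genes), as the study's methods name it. Calls needed an adjusted p at or under 0.05 and a fold over 2. The 95% limits use the SE of DESeq2. Alternatives used edgeR 4.0.16, limma 3.58.1 on log2 TPM, other scalings and filters, the replicate number as a block, and each library left out. Steps were tested on simulated data. Positions are from GENCODE 44, which holds 99.4% of the identifiers, and promoters from RefSeq.

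The members and lists were chosen with earlier results of these data known. Named were every member, the ligands of the members, all lineage and state regulators, and list genes called and averaging at least 50 normalized counts. The list gene SPRY3 has 2 rows and was left out. Pooled ratios use exact Clopper-Pearson limits on the counts summed within each group. These limits and the floors describe counting error alone, without the spread between libraries. Duplicated reads could not be recognised without molecular identifiers.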

Additional observations from a re-analysis of the deposited data

How the results depend on the processing

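The number of receptors called over 2-fold, 4 as reported, was 4 in edgeR and with TMM factors and 3 with total counts, with at least 10 counts in 3 libraries, without independent filtering and after GC content and length correction, the last chosen after seeing the data. It ranged from 2 to 4 when each library was left out in turn, with 2 without GFP replicate 3 or T-MGM replicate 2. It was 0 on log2 of TPM plus 1 with or without a filter, 1 with a pseudocount of 0.1, and 1 in a test against a log2 fold change of 1, a setting also chosen after seeing the data. The number of receptors at an adjusted p at or under 0.05, 7 as reported, was 4, 4 and 3 in the TPM fits (pseudocount 1, pseudocount 0.1, no filter), of which the filtered fits test fewer receptors, 1 in the test against 1, and 5 to 7 with 1 library left out. Over the pathway lists together 9 genes were called over 2-fold as reported, and 3, 5 and 3 in the TPM fits, 5 in the test against 1, and 8 to 9 with 1 library left out. The number that passed 0.05 was 43, 5 in the test against 1, which excludes smaller changes by construction, and 40 to 42 with 1 library left out. Of the 43, 23 rose and 20 fell, against 14 and 20 in the filtered TPM fits, 16 and 18 in unfiltered TPM, 22 and 24 with total counts and 23 and 13 after GC correction. With the replicate number as a block 2 receptors were called over 2-fold (FGFR2 and PDGFRA; FGFR3 had a DESeq2 adjusted p of 0.0503 and PDGFRB of 0.122) and 5 passed 0.05, but deviations of same-numbered libraries from their group means correlated at only -0.002, -0.040 and 0.043 over 12654 genes and not every library correlated best with its own number, so the numbers were not taken as a pairing. The ratio of ERBB3 to FGFR1 levels moved from 1.21 to 2.28 in GFP and from 0.778 to 1.56 in T-MGM with counts per kilobase of gene model. Sign reversed for ERBB2 in the TPM fits (-0.036, -0.043 and -0.036) and after GC correction (-0.011), for FGFR3 in unfiltered TPM (-0.052), for SOX10 in the TPM fits (-0.048 in each) and after GC correction (-0.025), for MITF in the TPM fits (-0.062 in each), and in the range of fits without 1 library for EGFR (-0.093 to 0.34) and PAX3 (-0.065 to 0.036). In the TPM fits the median log2 change over the 12654 genes averaging at least 50 normalized counts was -0.13, -0.15 and -0.13, beside -0.01 as reported. The cause of these shifts was not tested. FGFR1, FGFR2 and PDGFRA stayed higher and at or under an adjusted p of 0.05 in every fit that tested them except, for FGFR1 and PDGFRA, the test against 1. ERBB3 and MET kept their sign in every fit. Neither passed in the test against 1 or in unfiltered TPM (limma adjusted p of 0.116 for ERBB3 and 0.0665 for MET).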
